A study of Danio rerio with 6 samples.

Results

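The complement names c4, c5, c6, c7a, c7b, c8a, c8b, c8g, c9 and cfb were selected by gene name from a table of RNA-seq counts from zebrafish (Danio rerio) larval heads, and all 10 names were found, on 11 rows of 32520. The name c6 stood on 2 rows, which a table of gene names separates into c6.1 (ENSDARG00000093052) and c6.2 (ENSDARG00000057113). All 11 rows passed the filter on low counts. The libraries came from heads of larvae homozygous for the y712 allele of srrm4, a regulator of neural microexon splicing, and from heads of wild-type siblings, at 3 days post fertilization. Each genotype had 3 libraries, labelled replicates 1, 2 and 3. The sources used here do not give the strain, the sex, the number of heads per library or the lesion behind y712, and do not say that replicates came from separate clutches. Any p-value therefore measures the spread between these libraries, which may be technical.

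Complement is a cascade of plasma proteins that tags and lyses microbes, and most of its components are secreted by hepatocytes. C4 works in the classical and lectin pathways and factor B (cfb) in the alternative pathway, and each contributes to a convertase that cleaves C3 and C5. The cleaved C5 then gathers C6, C7, the 3-chain C8 (c8a, c8b, c8g) and many copies of C9 into the membrane attack complex, a pore in the target membrane. In the fish larva the liver lies in the trunk, behind the head.

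The 10 names were chosen by family, with earlier results of these data in view. The group was selected on a low level of c4 in the replicate 1 libraries and of c9 in the mutants, unlike other liver genes. Both contrasts are therefore given here as descriptions, and nothing is read from a call of c4 or c9 in the fits over all genes. Levels are CPM, counts scaled to the library size with TMM factors. Transcript lengths were not used, so levels were compared between libraries and not between genes. In bulk RNA, fewer cells of a type and less RNA per cell cannot be told apart.

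Total counts per library ranged from 52510621 to 101032166. The replicate 1 libraries of both genotypes stood apart, along a first principal component with 72.3% of the variance. The 12 neuron, lens and photoreceptor markers checked for the head were all detected. Markers of the trunk were also present, and some were higher in replicate 1. The summed level of hox groups 9 to 13 was 117 and 106 CPM in wild-type and mutant replicate 1. In the other 4 libraries it was 14.4 to 21.6 CPM. For 8 hepatocyte markers the sum was 8060 and 7603 CPM against 1852 to 2183 CPM. Apoa2 held 5236 and 4913 CPM of the replicate 1 sums, and fabp10a was higher there by only 0.09 on the log2 scale. Exocrine pancreas markers went the other way, with 13 of 14 lower in replicate 1 (median -0.52). The part of trunk tissue in the complement differences was not tested. Srrm4 itself lay between 14.6 and 55.1 CPM in wild-type and between 18.7 and 58.7 CPM in mutant libraries, so its counts gave no check of the genotype labels.

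The level of the 11 complement rows together followed the replicate number. Their sum in wild-type libraries was 367, 175 and 165 CPM for replicates 1, 2 and 3, and in mutant libraries 337, 162 and 164 CPM. The replicate 1 library thus held 2.16 times the mean of the other replicates in wild-type and 2.07 times in mutants. C9 alone held 43.6% and 38.4% of the counts of the 11 rows in wild-type and mutant replicate 1. In the other libraries its share was 22.8% to 29.2%, so c9 weighed most in the sum. Within that sum the genes differed in pattern, and c4 was the row that ran most clearly against it.

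**Figure D1:**
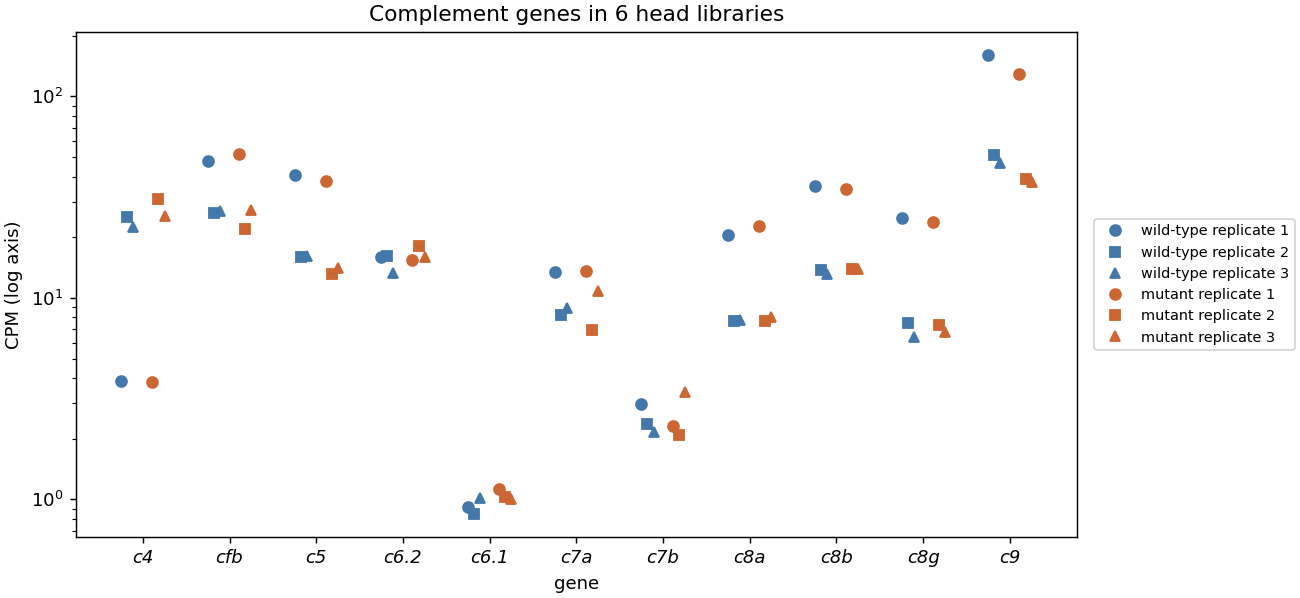
CPM (log axis) of the 11 complement rows in each of the 6 libraries, with wild-type in blue, mutant in orange and a marker shape per replicate number. The replicate 1 circles lie above the other replicates for c5, c7a, c8a, c8b, c8g, c9 and cfb, below them for c4 (3.86 and 3.81 CPM), and among them for c6.2.

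Among the initiating components, c4 (ENSDARG00000015065) was low in both replicate 1 libraries. The wild-type replicates 1, 2 and 3 gave 253, 2583 and 2488 counts, and the mutant libraries of the same numbers 172, 2763 and 2751 counts. In CPM these were 3.86, 25.2 and 22.6 in wild-type and 3.81, 30.9 and 25.4 in mutants. The replicate 1 values lay far below the other 4 libraries, and the genotypes overlapped. On the log2 CPM scale, replicate 1 minus the mean of replicates 2 and 3 was -2.62 in wild-type and -2.87 in mutants, a level 6.70-fold lower when the genotypes were averaged. Of all 24765 genes tested, 0.876% were more than 4-fold lower in replicate 1.

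The paralog c4b (ENSDARG00000038424), named after its values were seen, went the other way. Its level was 25.1, 9.56 and 6.75 CPM in wild-type and 19.9, 8.31 and 7.57 CPM in mutant replicates 1, 2 and 3. The ratio of c4 to c4b counts within a library was 0.154 and 0.191 in the wild-type and mutant replicate 1 libraries and lay between 2.63 and 3.72 in the other 4. In the RefSeq annotation of the GRCz12tu assembly c4 is on chromosome 15 and c4b on chromosome 16, so they are not neighbours.

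Factor B, the serine protease of the alternative pathway convertase, was higher in replicate 1. The level of cfb (ENSDARG00000055278) was 47.8, 26.3 and 26.9 CPM in wild-type and 51.6, 21.9 and 27.2 CPM in mutant replicates. Both replicate 1 values exceeded the other 4. On the log2 scale they lay above the mean of replicates 2 and 3 of the same genotype by 0.84 in wild-type and 1.08 in mutants. Its next protein-coding neighbour on chromosome 21 is bfb, another factor B gene, and reads may be split between them, so the values of cfb are uncertain to that extent.

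C5 (ENSDARG00000021004), whose cleavage starts the terminal pathway, measured 40.7, 16.0 and 16.2 CPM in wild-type and 38.2, 13.1 and 14.1 CPM in mutants. It was higher in replicate 1 by 1.34 and 1.49 on the log2 scale. In each pair the mutant library was the lower, with log2 CPM differences of -0.09, -0.29 and -0.20.

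The C6 and C7 genes differed among themselves across replicate numbers. The level of c6.2 was 15.9, 16.2 and 13.3 CPM in wild-type and 15.4, 18.01 and 15.9 CPM in mutants, and replicate 1 lay among the others. Its near namesake c6.1 had only 51 to 112 counts per library, or 0.848 to 1.13 CPM. The C7 gene c7a (ENSDARG00000042172) was at 13.5, 8.19 and 8.96 CPM in wild-type and 13.6, 6.90 and 10.8 CPM in mutants, with both replicate 1 values highest. The other C7 gene, c7b (ENSDARG00000057121), lay between 2.08 and 3.39 CPM, and its highest value was in mutant replicate 3. In the annotation c7b lies next to c6.2, on the chromosome that also carries c6.1 and cfb, while c7a is on chromosome 8. Reads may be split between the paired copies c6.1 and c6.2, and between c7a and c7b.

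The 3 chains of C8 moved in the same direction across replicate numbers. C8a (ENSDARG00000039516) and c8b (ENSDARG00000039517), pore-forming chains whose genes are neighbours on chromosome 2, had the closest profiles among the 11 rows, with a root mean square difference of 0.085 between their centred log2 CPM values over the 6 libraries. C8a measured 20.6, 7.69 and 7.75 CPM in wild-type and 22.8, 7.68 and 8.02 CPM in mutants. C8b measured 35.8, 13.7 and 13.2 CPM in wild-type and 34.5, 14.0 and 13.8 CPM in mutants. The ratio of c8a to c8b counts stayed between 0.550 and 0.662 in all 6 libraries. C8g (ENSDARG00000032098), the lipocalin-like chain encoded on chromosome 24, was at 25.01, 7.48 and 6.40 CPM in wild-type and 23.7, 7.33 and 6.75 CPM in mutants. Its ratio to c8b was 0.699 and 0.688 in the replicate 1 libraries and 0.485 to 0.546 in the others. The nearest profile to c8g among the 11 rows was c9, at 0.18, and the farthest from every other row was c4. C5 lay nearer to c8a and c8b, at 0.13 from each, than c8g did, at 0.19 and 0.22.

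C9 (ENSDARG00000016319), the subunit that polymerizes to complete the pore, had the smallest SD of the pair differences among the 11 rows. It was chosen for its low level in mutants and held the most counts of the 11 rows, so this is a description only. Wild-type libraries held 10477, 5243 and 5167 counts of c9, in replicate order, and mutant libraries 5835, 3497 and 4056. The levels were 160.0, 51.1 and 46.9 CPM in wild-type and 129, 39.1 and 37.4 CPM in mutants. Because replicate 1 was high in both genotypes, the genotypes overlapped across replicate numbers. Within each pair the mutant library was the lower, with log2 CPM differences of -0.31, -0.39 and -0.33, which are mutant to wild-type ratios of 0.808, 0.765 and 0.797. The mean of the pairs was -0.34 ± 0.041 (SD, n = 3 pairs).

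**Figure D2:**
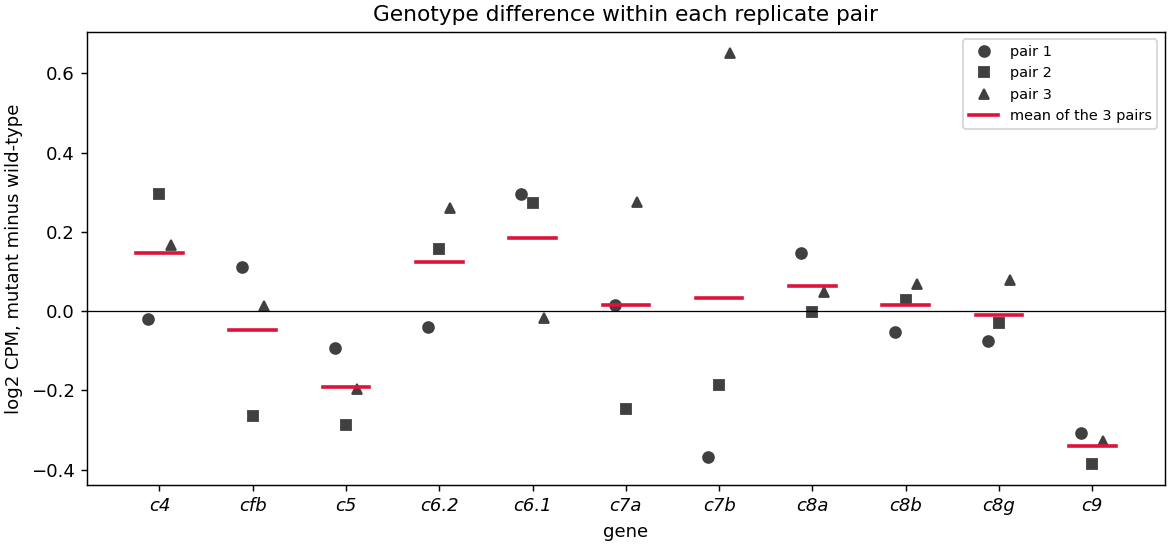
Log2 CPM of the mutant minus the wild-type library for each complement row, with 1 point per replicate pair and a red bar at their mean. The 3 points of c9 lie between -0.39 and -0.31, those of c5 are all below 0, and those of c7b run from -0.37 to 0.65.

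Setting c9 against transcripts of the same library removes the library scaling. For each c8g count there were 6.40, 6.84 and 7.33 c9 counts in the wild-type libraries, in replicate order, and 5.45, 5.34 and 5.53 in the mutant libraries. On this ratio the genotypes did not overlap, which was the case for none of the 3 that follow. C9 was chosen for its low level in mutants, and c8g has the profile nearest to it, so nothing is read from that separation. Per c8b count, c9 had 4.48, 3.73 and 3.55 counts in wild-type and 3.75, 2.80 and 2.7004 in mutants, which overlapped because replicate 1 was high in both genotypes. Per c5 count, c9 had 3.93, 3.203 and 2.90 counts in wild-type and 3.39, 2.99 and 2.65 in mutants, lower in every pair by a smaller margin than the ratios to c8g and c8b, and overlapping. Per 1000 counts of the 8 hepatocyte markers, c9 had 19.9, 23.4 and 25.3 counts in wild-type and 17.0, 19.8 and 20.0 in mutants. This ratio was lower in every pair and overlapped between the genotypes. Apoa2 weighed most in the marker sum, with 342773 counts in wild-type replicate 1 against 2742 of fabp10a.

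**Figure D3:**
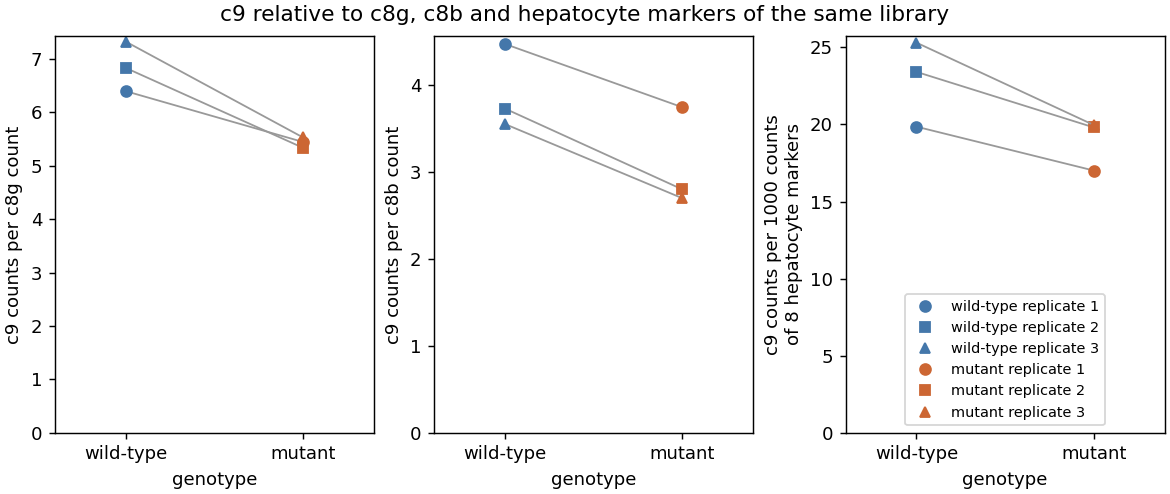
Counts of c9 per c8g count, per c8b count and per 1000 counts of 8 hepatocyte markers in each library, with a line joining the wild-type and mutant library of the same replicate number and all axes starting at 0. All 9 lines run downward, and the genotypes are separate only for the ratio to c8g (6.40 to 7.33 against 5.34 to 5.53).

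The comparison of mutants with wild-type siblings asks what the srrm4 mutation does to the head transcriptome. In the edgeR quasi-likelihood fit with genotype alone, 0 of the 24765 genes passed (0%), with 70 at an unadjusted p under 0.05, so no complement gene was called. With the replicate number as a block the edgeR count was also 0 (0%), and 1138 genes had an unadjusted p below 0.05. DESeq2 called 0 without the block (0%) and 18 genes with it (0.0727%), of which 11 were lower in mutants (0.0444%). Of the complement rows 1 of 11, c9, was among those lower genes. Since c9 was picked for this difference, nothing is read from that call. It was also among the genes called without pair 2, and not among those called without pair 1 or without pair 3. In the last 2 fits its log2 fold change was -0.36 and -0.34. These fits reuse the libraries on which c9 was picked, so nothing is read from them either.

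The block changed the error far more than the estimate. For c9 edgeR estimated a log2 fold change of -0.33 (SE 0.69), and its 95% interval ran from -1.99 to 1.33. With the block it was -0.34 (SE 0.040), a level 21.0% lower. For c5 it was -0.16 (SE 0.56) and with the block -0.19 (SE 0.056), with an unadjusted 95% interval of -0.32 to -0.06. For c4 the blocked value was 0.18 (SE 0.069), with an unadjusted 95% interval of 0.02 to 0.34 and pairs at -0.02, 0.30 and 0.17. The 3 chains of C8 lay near 0 with the block, at 0.07 (SE 0.063) for c8a, 0.01 (SE 0.052) for c8b and -0.01 (SE 0.064) for c8g. Cfb was at -0.05 (SE 0.075), c6.2 at 0.13 (SE 0.070), c6.1 at 0.18 (SE 0.18), c7a at 0.02 (SE 0.10) and c7b at 0.07 (SE 0.21). In DESeq2 with the block the SEs were larger, at 0.095 for c5, 0.11 for c4 and 0.076 for c9.

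The median blocked log2 fold change of the 11 rows was 0.02, and that of all genes tested was -0.001. Lower in all 3 pairs were 2 of the 11 rows, c5 and c9, against 13.8% of all genes. C9 was chosen for its low level in mutants, so nothing is read from that count. Higher in all 3 pairs were 0 rows, against 13.1%. The genotypes overlapped for all 11 rows in CPM. Over all genes, 0.945% were lower in mutants with no overlap and 1.09% higher.

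Other complement genes, from lists of names, showed no call in edgeR with or without the block. Of 22 tested genes for recognition and early components, 13 had a negative and 9 a positive blocked log2 fold change, with a median of -0.03. C3a.1 (ENSDARG00000012694), a copy of the central component C3, had pair differences of -0.16, -0.17 and -0.12, and c3b.1 (ENSDARG00000093068), another copy, of -0.02, -0.32 and -0.04. The C1 protease gene c1s was higher in mutants with no overlap, at 0.367 to 0.526 CPM in wild-type and 0.553 to 0.643 CPM in mutants, levels of few counts. Of 16 regulators and receptors, 8 had a negative and 8 a positive value, with a median of 0.004. The factor H genes cfhl4 and cfh, which restrain the alternative pathway, stood at -0.01 (SE 0.04) and -0.02 (SE 0.06) in blocked log2 fold change. The integrin gene itgb2, part of a complement receptor on leukocytes, was lower in mutants with no overlap (6.02 to 6.84 CPM in wild-type and 5.22 to 5.98 CPM in mutants). C1s and itgb2 were named after their values were seen. They were the only genes of their lists with no overlap (1 of 22 and 1 of 16), against 1.09% of all genes higher and 0.945% lower.

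The liver genes gave the setting for c9. Of 49 tested genes for secreted and metabolic liver proteins, 41 had a negative and 8 a positive blocked log2 fold change, from -0.71 to 0.55. Their median was -0.08, where that of all genes tested was -0.001. Lower in all 3 pairs were 11 of the 49, against 13.8% of all genes. Higher in all 3 pairs was 1, against 13.1% of all genes. It was itih3a, named after its values were seen, at 0.45 (SE 0.10), with pairs at 0.39, 0.68 and 0.27. Apoa1b and apoa2, apolipoproteins of high density lipoprotein, stood at -0.10 (SE 0.04) and -0.09 (SE 0.03), and apobb.1, the main protein of larger lipoproteins, at -0.12 (SE 0.03). C9 was chosen for its low level in mutants, unlike other liver genes, so its place among these genes is a description only. The list of 49 had 3 genes below c9, namely cyp2ad2, amy2a and ahsg2, and 3.94% of all genes tested were below it. Those 3 genes had low counts, with SEs of 0.25, 0.37 and 0.66, and amy2a is also on the list of exocrine pancreas markers. All 8 hepatocyte markers lay between -0.12 and 0.06. Liver transcription factors lay between -0.12 and 0.08 (19 genes, median -0.04), with prox1a at -0.11 (SE 0.05), cebpd at 0.01 (SE 0.04) and cebpa at -0.09 (SE 0.05). None of these genes passed edgeR with or without the block, or DESeq2 with the block.

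Across replicate numbers, c5, the C8 chains and c9 moved in the direction of the hepatocyte markers, and c4 moved against it. More than 2-fold higher in replicate 1 were those 5 of the 11 rows, against 6.84% of all genes. More than 2-fold lower was 1 row, c4, also against 6.84%. C4 was chosen for that low level, so nothing is read from the count of lower rows. C9 was higher by 1.71 in wild-type and 1.76 in mutants, and c8g by 1.85 and 1.75. The 8 hepatocyte markers had a median of 1.67, the 49 liver genes 1.104, the early components 0.81 and the regulators 0.74. All 8 markers were higher in replicate 1, though fabp10a by only 0.09. Of the 49 liver genes 34 were higher and 15 lower, against 49.4% of all genes higher. C6.1, c6.2 and c7b were close to 0, at 0.07, -0.01 and 0.10. Each averaged values of opposite sign in the genotypes, for c7b 0.40 in wild-type and -0.20 in mutants. With library totals as the only scaling c6.1 and c7b turned negative and c6.2 stayed so, since that scaling moved the median of all genes from -0.01 to -0.33.

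C4 was chosen for its low level in replicate 1, so its place among the other liver and complement genes is a description only. Of the 22 early components 1 was more than 2-fold lower in replicate 1, the C3 copy c3a.2 (ENSDARG00000087359), at 7.79, 32.4 and 31.7 CPM in wild-type and 10.5, 21.7 and 35.9 CPM in mutants. None of the 16 regulators was, and of the 49 liver genes 2 were, ttr and ahsg2. None of the genes in those lists, or of the liver transcription factors, was as low in replicate 1 as c4. Liver transcription factors had a median of 0.11 and the neuron and head markers -0.82.

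**Figure D4:**
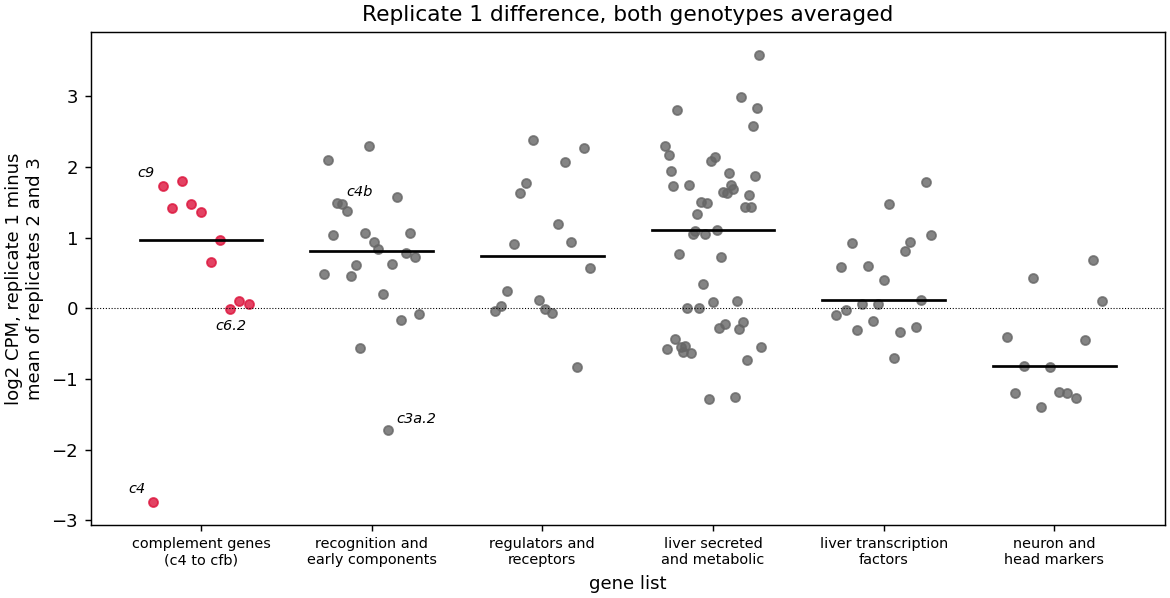
Log2 CPM of replicate 1 minus the mean of replicates 2 and 3, averaged over the genotypes, with 1 point per gene and a black bar at the median of each list. C4 (-2.74) lies below every other gene plotted, while c9 (1.73) lies near the top of the complement genes in red (median 0.96).

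Over all genes tested, the profile closest to c4 was that of the clone-named gene FP101914.1 (ENSDARG00000100857), with a root mean square difference of 0.082 in centred log2 CPM over the 6 libraries. It measured 4.12, 25.8 and 23.8 CPM in wild-type and 3.90, 28.4 and 23.8 CPM in mutants. AL807792.1 (0.096), RF00001 (0.12), the olfactory receptor gene or125-4 (0.13) and CR936968.2 (0.13) came next, all but CR936968.2 at 1.29 CPM or less. For c9 the closest were SLC46A3 (1 of many) at 0.094, gal3st1b at 0.098, the water channel gene aqp4 at 0.10, hoga1 at 0.10 and si:ch73-379f7.4 at 0.10. Hoga1, a mitochondrial aldolase of hydroxyproline breakdown, measured 26.7, 9.48 and 7.97 CPM in wild-type and 25.2, 7.72 and 7.46 CPM in mutants. The genes near c9 were picked by their profile over these same libraries, which includes the genotype differences. Nothing is therefore read from the pair differences that follow. The pair differences, mutant minus wild-type in log2 CPM, were -0.27, -0.10 and -0.29 for SLC46A3 (1 of many), -0.17, -0.24 and -0.39 for gal3st1b, -0.12, -0.24 and -0.09 for aqp4, -0.09, -0.30 and -0.10 for hoga1 and -0.16, -0.44 and -0.07 for si:ch73-379f7.4, against -0.31, -0.39 and -0.33 for c9.

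Markers of other cell types and tissues varied with the replicate number as well. Macrophage and microglia markers were higher in replicate 1 for 15 of 15 genes (median 0.56), led by apoc1, which hepatocytes also express, and their blocked genotype median was -0.01. On that list ptprc, named after its values were seen, was higher in mutants with no overlap. It measured 3.35 to 3.58 CPM in wild-type and 3.85 to 4.48 CPM in mutants. Neutrophil markers had replicate 1 and genotype medians of 0.37 and -0.02 (10 genes). Epidermis markers stood at 0.46 and 0.05 (15 genes), skeletal muscle at 2.03 and -0.03 (16 genes), intestine at 1.96 and -0.22 (10 genes) and exocrine pancreas at -0.52 and 0.07 (14 genes). EdgeR with and without the block called 0 of these genes between the genotypes. DESeq2 with the block called 1, on the intestine list of 10 genes, against 0.0727% of all genes. It was a second row named apoa4b.2 (ENSDARG00000094929, log2 fold change -0.71, SE 0.17, adjusted p 0.0491). Its level was 20.1, 1.54 and 1.03 CPM in wild-type and 14.2, 0.727 and 0.645 CPM in mutant replicates. No marker list other than the intestine list had a blocked median as far below 0 as -0.1, and the part of intestine or liver content in the c9 difference was not tested.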

How the data were processed

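Messenger RNA libraries (TruSeq stranded mRNA kit, per the labels' protocols) were made from RNA isolated with 1 of 2 kits, and the labels do not say which kit served which library. The authors deposited a table of raw counts with 32520 Ensembl genes. Their other deposited table holds a normalized signal, which is the count over a size factor of the library. The submitters' processing notes name STAR 2.7.3, featureCounts 1.6.4, DESeq2 and the build GRCz11, with no roles. Strand setting and annotation release: not given in the sources used here.

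Counts were tested in edgeR 4.0.16 (R 4.3.3) with TMM scaling, filterByExpr by genotype (24765 genes kept) and its quasi-likelihood test in robust form, 2-sided, with Benjamini-Hochberg adjusted p under 0.05 over all genes. DESeq2 1.42.0, limma-voom (limma 3.58.1), other scalings and filters, and fits without each library or pair were alternatives, and the edgeR and DESeq2 fits on all libraries, with and without the block, were tested on simulated counts. Log2 CPM used a prior count of 2. No 2 libraries were duplicates: the chi-square statistic per gene was at least 4.78. The replicate numbers come from the labels, which do not say that they mark pairs. After subtracting each genotype's mean, the wild-type and mutant libraries of 1 number were correlated over the genes tested (0.863, 0.579 and 0.744). Wild-type 2 with mutant 3 (0.418) and wild-type 3 with mutant 2 (0.365) were also correlated, so pairs 2 and 3 are less certain. All other unlike numbers had negative correlations. The numbers were used as pairs.

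The members and gene lists were chosen with earlier results of these data known. Named genes are all members, up to 3 genes of a list with the highest mean CPM, the 5 genes with profiles closest to c4 and to c9, and exceptions marked in the text. Chromosomes and neighbours come from RefSeq's GRCz12tu annotation, used for order only. Sequences are not used here.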

Additional observations from a re-analysis of the deposited data

How the results depend on the processing

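With the replicate block the count of genes called stayed at 0 in edgeR and was 18 in DESeq2. Without 1 replicate pair it ranged from 0 to 2 in blocked edgeR (2 without pair 2) and from 7 to 15 in blocked DESeq2 (12 without pair 1). Fits without 1 library, and those with other scalings, filters or limma-voom, all called 0 genes; the blocked limma-voom and DESeq2 fits without a pair, and the unblocked fit without the replicate 1 pair, were chosen after seeing the data. The log2 fold change of c9 ranged from -1.17 (without mutant replicate 1) to 0.49 (without wild-type replicate 1) in unblocked fits, where the high replicate 1 level is then held by only 1 genotype or weighs more in 1. It was -0.05 without mutant replicate 2 and -0.03 without mutant replicate 3. In blocked fits without a pair it ran from -0.36 to -0.32, and without the replicate 1 pair and with no block it was -0.36 (SE 0.089). The replicate 1 difference of c4 went from -2.74 to -3.07 with library totals only and kept its direction under each of the 5 alternatives. The block changed the call of no other complement gene. Depth limits c6.1, with 51 to 112 counts per library, most.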
